A study of Mus musculus with 6 samples.

Results

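Conjugating enzymes make drugs, hormones and reactive metabolites more soluble by adding a glucuronic acid, a sulfate or a glutathione. The genes described here are the UDP-glucuronosyltransferases (Ugt), cytosolic sulfotransferases (Sult), and cytosolic, mitochondrial and microsomal glutathione S-transferases (Gst and Mgst) of the mouse. They were taken by symbol from the protein-coding genes of the annotation. Of 68 such genes, 41 had at least 10 raw counts in at least 3 libraries and are described, among 17086 genes tested and 54838 gene identifiers in all. The other 27 had at most 10 counts in any library, and 5 of them were at 0 in all 6. Those 27 include the hydroxysteroid sulfotransferases Sult2a1 to Sult2a8, the oestrogen sulfotransferase Sult1e1, and Ugt1a1, the bilirubin-conjugating form, which had between 4 and 10 counts. Only 17.3% of the exon bases of Ugt1a1 belong to no other gene, so its level is uncertain.

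RNA of glomeruli, the capillary tufts that filter the blood, was sequenced from kidneys of 3-week-old mice. The 3 libraries labelled CTRL came from wild type mice 157, 162 and 163, and the 3 labelled KO from mice 146, 147 and 148, in which bPIX (the product of Arhgef7) was deleted only in podocytes, the epithelial cells that wrap the glomerular capillaries. The sources used here do not give the driver of the deletion, the sex of the mice, the isolation method or their litters, so p-values measure only the spread between these 6 samples. The comparison asks how transcript levels differ between glomerular preparations with and without podocyte bPIX.

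The deposited files are named for the opposite group in all 6 cases. Here each library has the group of its sample label, and every sign below would reverse if the file names were right. The targeted gene Arhgef7 had 3956, 3582 and 3915 counts in the CTRL libraries. In KO 146, 147 and 148 it had 7837, 3712 and 3903 counts. These whole-gene counts do not settle which labels are right, since cells other than podocytes keep the gene intact. Gene counts per library ranged from 39841396 to 51917945.

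Glucuronosyltransferases sit in the endoplasmic reticulum and use UDP-glucuronic acid, sulfotransferases work in the cytosol with the activated sulfate donor PAPS, and glutathione S-transferases attach glutathione to electrophiles. In the kidney these enzymes are best known from the proximal tubule, the segment that takes up and secretes organic anions and drugs. Several are regulated by the oxidant-responsive factor NRF2 and by the aryl hydrocarbon receptor.

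The libraries held tubule transcripts as well as glomerular ones, and the mixture differed between the groups. Summed levels of 23 proximal tubule markers ranged from 34520 to 35610 CPM (counts scaled to library size) in the CTRL libraries, and were 15910, 24340 and 27470 CPM in KO 146, 147 and 148. All 23 log2 fold changes were below 0 (median -0.57), against 50.7% of all tested genes. By edgeR 1 gene, the transporter Slc7a13, was called lower (0.421% of all genes). At an unadjusted edgeR p below 0.05, 14 were lower (11.8% of all genes), and DESeq2 called 11 lower (4.49%). Of 19 tested markers of the loop of Henle, distal tubule and collecting duct, 19 were negative (median -0.42). Their sums were 9224 to 11480 CPM in CTRL and 5759 to 10180 CPM in KO. By edgeR 0 of these 19 were called, with 8 lower at an unadjusted p below 0.05 (11.8% of all genes). DESeq2 called 4 of them lower (4.49%). All 20 podocyte markers were positive (median 2.04), with sums of 1387 to 1643 CPM in CTRL and 10420, 4455 and 3000 CPM in KO 146, 147 and 148. All 23 endothelial and mesangial markers were positive as well (median 1.74), with sums of 1120 to 1282 against 2178 to 7476 CPM. By edgeR, 0 of the podocyte and 0 of the endothelial and mesangial markers were called (0.591% of all genes called higher). At an unadjusted edgeR p below 0.05, 19 and 22 were higher (17.5% of all genes). DESeq2 called 17 and 19 higher (10.3%). None of these tubule and glomerular markers was at 0 in any library. Blood and macrophage markers overlapped between the groups (176 to 684 CPM in CTRL, 276 to 565 CPM in KO). Liver also makes many of these enzymes. Of 10 hepatocyte markers 8 were tested, 4 of them negative and 0 called by edgeR. At an unadjusted edgeR p below 0.05, 2 were lower (11.8% of all genes), and DESeq2 called 2 lower (4.49%). Sums of the hepatocyte markers overlapped, at 106.2 to 167.4 CPM in CTRL and 119.1 to 234.3 CPM in KO. Most of that was Ttr, transthyretin, at 89.3 to 220.9 CPM, whereas Alb, serum albumin, was at 0.73 to 1.53 CPM and Ahsg and Cps1 were at 0 in some libraries. Xist, the transcript of the inactive X chromosome, had 1 to 4 counts per library, and the Y-linked Ddx3y had 2112 to 4197. KO 146 stood apart from the other KO libraries, with the least tubule and the most glomerular RNA, so results are also given without it. In such bulk samples, fewer cells of a type and less RNA per cell cannot be told apart.

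The promoters below are those of some genes of 2 clusters, Ugt1 and Ugt2. Each Ugt1 gene has its own promoter and first exon on chromosome 1 and shares the remaining exons with the others, so Ugt1 genes are told apart mainly by their first exons. The annotated last exon of Ugt1a7c also runs past that of the other Ugt1 genes, which makes up 998 of its 1915 exon bases that no other gene shares, and reads from there count to Ugt1a7c whichever first exon they belong to. Sequences are the 100 bases before the start on build GRCm38.p6, from RefSeq, written 5′ to 3′ on the gene's strand. Capitals mark a match to GCGTG or its reverse complement CACGC, the core of the xenobiotic response element bound by the aryl hydrocarbon receptor. Shown are Ugt1a10 (chr1:88055311-88055410, plus strand), the Ugt1 gene with the highest level per length, Ugt1a8 (chr1:88087728-88087827, plus strand), whose window holds the match, and Ugt1a7c (chr1:88094901-88095000, plus strand), the Ugt1 gene with the lowest adjusted p, whose window holds no such letters.
Ugt1a10: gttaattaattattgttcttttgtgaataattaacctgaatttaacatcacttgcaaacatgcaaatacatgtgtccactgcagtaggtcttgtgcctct
Ugt1a8: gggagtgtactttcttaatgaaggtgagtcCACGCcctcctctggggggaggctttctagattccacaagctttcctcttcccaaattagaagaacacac
Ugt1a7c: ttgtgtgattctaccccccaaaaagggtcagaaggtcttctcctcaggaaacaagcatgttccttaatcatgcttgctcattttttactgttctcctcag

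The Ugt2 pair shown is Ugt2b38 (chr5:87424204-87424303, minus strand) and Ugt2b37 (chr5:87254789-87254888, minus strand), genes of 1 cluster whose log2 fold changes had opposite signs and whose windows are close to identical once shifted. Over 250 bases their identity was 84.85%, and over the coding sequence it was 94.1%.
Ugt2b38: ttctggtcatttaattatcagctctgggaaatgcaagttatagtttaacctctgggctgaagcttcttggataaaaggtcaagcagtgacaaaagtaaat
Ugt2b37: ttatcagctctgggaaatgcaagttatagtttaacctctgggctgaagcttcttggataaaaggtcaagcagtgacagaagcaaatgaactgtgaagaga

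Of the 41 genes, 37 had 1 or more RefSeq start sites, which gave 48 windows of 250 bases before the start. All motifs were searched on both strands. The core of the antioxidant response element bound by NRF2, TGACNNNGC, was in 4 windows (8.33%), those of Gsta3, Gstm5, Gstm7 and Mgst1, against 10.2% of all 32851 windows. The xenobiotic core GCGTG was in 11 windows of 10 genes (22.9%), against 28.2% of all. In Gstm5 the antioxidant match contains a xenobiotic match. These matches describe letters only, and no binding was measured.

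Levels can be compared between genes only per length, given here as CPM per kilobase of exon that no other gene shares. On this scale Ugt2b38 was the most abundant of the 41 genes in the CTRL libraries, at 492.9 to 629.9, followed by Ugt3a2 at 218.8 to 252.6 and the sulfotransferase gene Sult1d1 at 168 to 189, with no overlap among these 3. Gstm1 (120 to 138), Gsta2 (108 to 125) and Mgst3 (88.2 to 108) came next, and each overlapped its neighbour in this order. In the KO libraries Ugt2b38 spanned 120 to 412 and overlapped Ugt3a2 (110 to 171) and Sult1d1 (118 to 166). The lowest of the 41 was Sult6b1, with a mean of 0.058 in CTRL and 0.14 in KO. The plot of level per length shows this order.

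**Figure D1:**
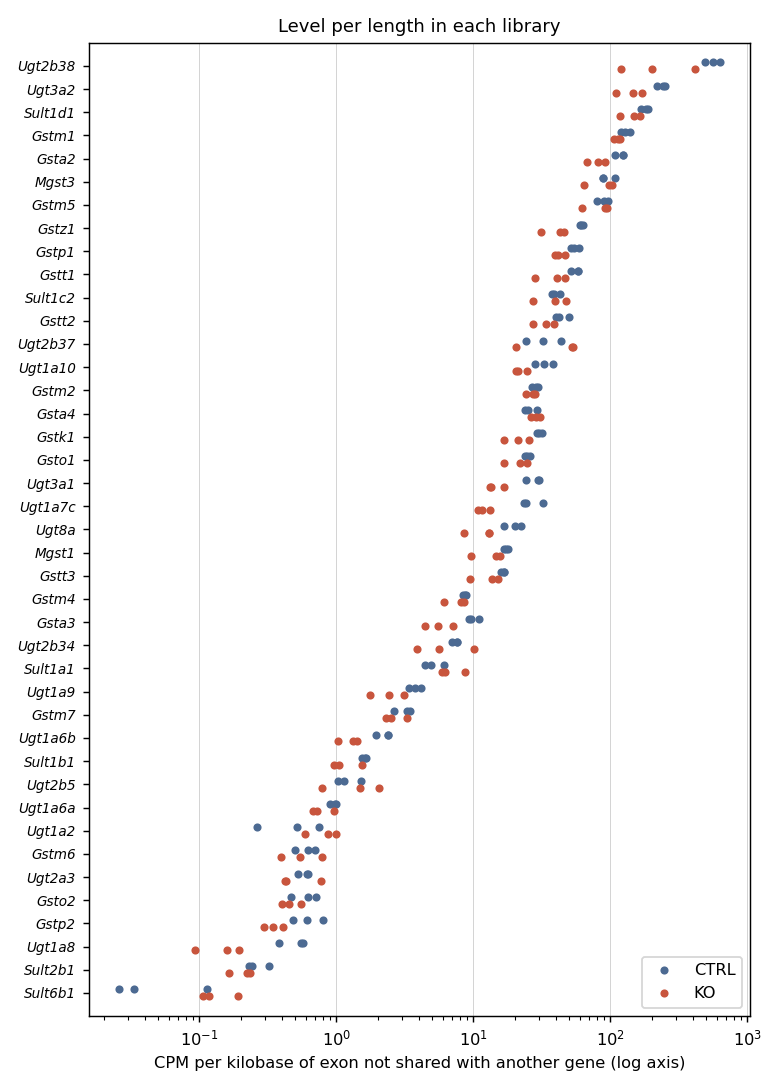
Level per length of the 41 genes in each of the 6 libraries, as CPM per kilobase of exon not shared with another gene on a log axis, with CTRL and KO points offset within a row. Ugt2b38, Ugt3a2 and Sult1d1 are at the top, and the 3 KO points of Ugt2b38 are spread from 120 to 412.

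Few of these genes passed the test. Ugt1a7c and Ugt3a1 were lower in the KO libraries at an adjusted p below 0.05, and none was higher. That is 2 of 41 against 0.421% of all tested genes called lower, and 0 of 41 against 0.591% called higher (edgeR quasi-likelihood test, Benjamini-Hochberg adjustment). DESeq2 (10.3% of all genes) and limma-voom (0.433%) also called 0 higher, and at an unadjusted edgeR p below 0.05 the count was 0 higher (17.5% of all genes) and 17 lower (11.8% of all genes). The log2 fold change, KO minus CTRL, was negative for 35 of the 41, against 50.7% of all tested genes. It was negative for 29 when counts were scaled by library totals, for 29 without KO 146, and for 19 with either marker mean described below as a covariate. Its median was -0.36, against -0.0062 over all tested genes. In 22 genes every KO library lay below every CTRL library (19.6% of all genes), in 0 every KO library lay above (21.9%), and in 19 the groups overlapped. Ugt1a8, counted in the 35, the 17 and the 22, reached the count minimum only through its CTRL libraries and so had to be lower. The median of -0.36 lies between 0 and the -0.57 of the proximal tubule markers, whose part in these differences was not tested.

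**Figure D2:**
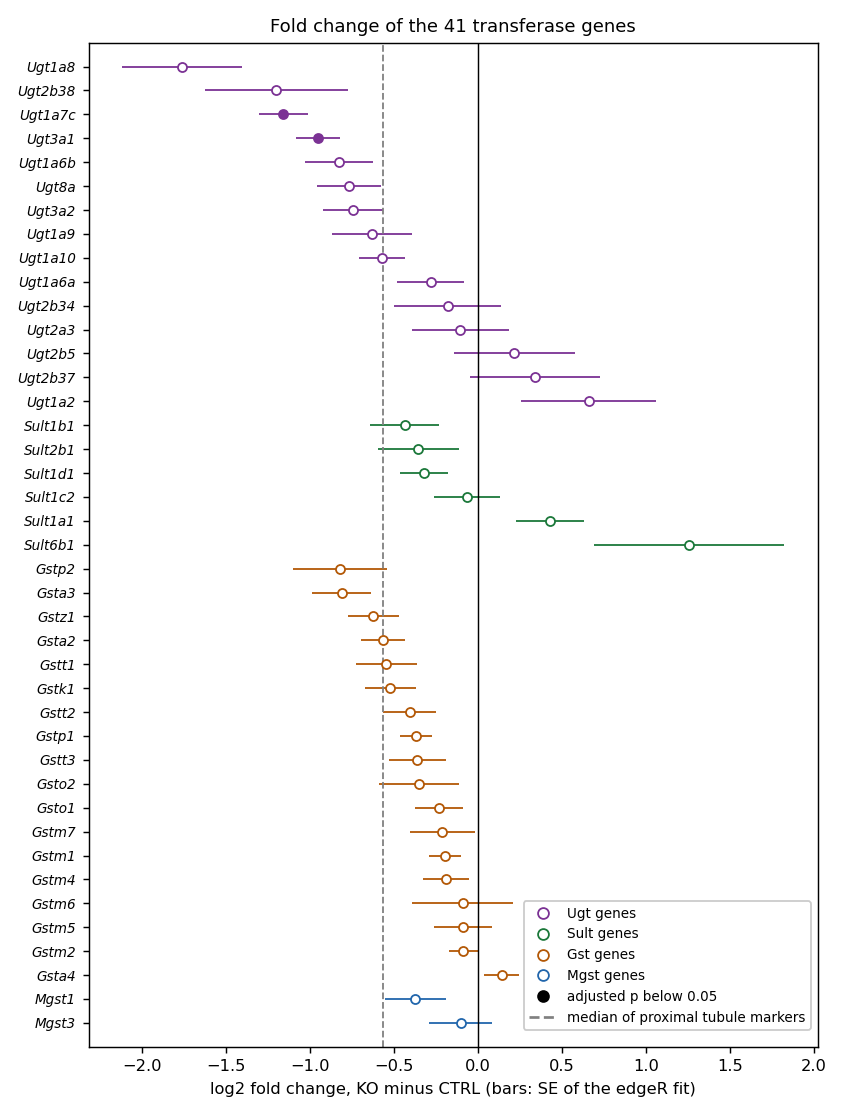
Log2 fold change, KO minus CTRL, of the 41 genes with the SE of the edgeR fit, coloured by enzyme class, with filled points for an adjusted p below 0.05 and a dashed line at the median of the proximal tubule markers. Most points lie between that line and 0, and the 2 filled points are Ugt1a7c and Ugt3a1.

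The number of calls depended on single libraries. Without KO 146, 13 genes were called lower (6.62% of all genes), and the median was -0.23. Without KO 148, 15 were called lower (5.4% of all genes), whereas 0 were called without KO 147 (0.00574% of all genes), CTRL 157 (0.00569%), CTRL 162 (0.0057%) or CTRL 163 (0.0284%). Both Ugt1a7c and Ugt3a1 were among the genes called without KO 146. The others were Ugt1a10, Ugt1a6b, Ugt1a8, Ugt3a2, Ugt8a, Gsta2, Gsta3, Gstk1, Gstp1, Gstt1 and Gstz1. On all 6 libraries DESeq2 called 13 (4.49% of all genes), among them Ugt2b38, and edgeR with no filter on low counts called 10 (1.31% of all genes). Ugt1a8 was called in both of these fits, without KO 146 and without KO 148. It reached the count minimum only through its CTRL libraries, so its direction was fixed by the choice of genes.

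The Ugt1 cluster encodes enzymes for phenols, bile pigments and many drugs. Of its 9 genes, 7 were measured, 6 of them with a negative log2 fold change (50.7% of all genes) and 1 called lower by edgeR (0.421%). At an unadjusted edgeR p below 0.05, 5 were lower (11.8% of all genes), and DESeq2 called 4 lower (4.49%). In 5 every KO library lay below every CTRL library (19.6% of all genes). Apart from the edgeR call, each of these counts includes Ugt1a8, which reached the count minimum only through its CTRL libraries. Ugt1a7c (ENSMUSG00000090124, chr1:88095062-88220002, plus strand, GRCm38), a form for phenols and bulky aromatic compounds, was at 61.4, 45.2 and 46.3 CPM in CTRL 157, 162 and 163. It was at 20.8, 22.2 and 25.4 CPM in KO 146, 147 and 148. The groups did not overlap, and the KO libraries were close to each other, in the order of their tubule markers. The mean fell from 51.0 ± 9.04 to 22.8 ± 2.37 CPM (SD, n = 3 each), a log2 fold change of -1.16 (SE 0.15, edgeR Benjamini-Hochberg adjusted p = 0.0339, range over the alternatives 3.88e-08 to 0.155). Without KO 146 the value was -1.10, and the call was lost without KO 147 (-1.14), CTRL 157 (-1.01), CTRL 162 (-1.24) or CTRL 163 (-1.23). Counts of Ugt1a7c can include last-exon reads of other Ugt1 forms, so the fall is one of gene counts and not of 1 form.

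Ugt1a10 was at 30.7, 22.6 and 26.6 CPM in CTRL 157, 162 and 163 and at 16.7, 17.2 and 20.0 CPM in KO 146, 147 and 148. The groups did not overlap, and the log2 fold change of -0.57 (SE 0.14) did not pass the test (edgeR Benjamini-Hochberg adjusted p = 0.0757). Ugt1a6b, one of the phenol-conjugating forms, was at 2.23, 1.84 and 2.24 CPM in CTRL and at 1.34, 0.965 and 1.23 CPM in KO, with a log2 fold change of -0.83 (SE 0.20). Its coding sequence is 98.37% identical to that of Ugt1a6a (-0.28), so counts of this pair are uncertain. Ugt1a9 had -0.63. Ugt1a8, at 15, 19 and 23 counts in CTRL and 5, 6 and 8 in KO, had -1.76. Ugt1a2 was the exception in sign, with 20, 9 and 30 counts in CTRL and 46, 37 and 24 in KO, which overlapped. Of the exon bases of these 7 genes, only 35.7% to 49.7% belong to 1 gene. The sources used here do not say how reads of the shared exons were counted. Ugt1a5, with 40.5% of its exon bases its own, had at most 1 count in any library. Reads of the shared exons were thus not counted to every gene.

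Within the cluster, the shares of Ugt1a7c and Ugt1a10 lay apart in the groups. Ugt1a7c made up 40.96%, 40.21% and 36.89% of the summed Ugt1 level per length in the CTRL libraries. In KO 146, 147 and 148 it made up 29.9%, 30.47% and 30.07%. Ugt1a10 made up 48.4%, 47.65% and 50.17% in CTRL and 56.67%, 55.68% and 55.91% in KO. For both genes the groups did not overlap, and the 3 KO libraries lay within 1 percentage point of each other. These are not separate results, since in 1 sum a lower share of Ugt1a7c goes with higher shares of the others. The CPM of Ugt1a10 itself was lower in KO. With counts not divided by length, Ugt1a7c made up 56.62% to 60.99% in CTRL and 48.65% to 49.44% in KO, so the shares themselves depend on the length used. Because counts of Ugt1a7c include its long last exon, these are shares of gene counts and not of first exons. Shares were chosen for display after the values were seen and were given no test.

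The Ugt2 cluster on chromosome 5 encodes enzymes known for steroids and bile acids. Of its 10 genes, 5 were measured, 3 negative (2 by library totals) and 2 positive. By edgeR and limma-voom 0 were called. Of the 5, 1 gene, Ugt2b38, was lower at an unadjusted edgeR p below 0.05 (11.8% of all genes), and DESeq2 called that gene lower (4.49%). Ugt2b38 (ENSMUSG00000061906, chr5:87409942-87424203, minus strand, GRCm38) was at 1191, 932 and 1063 CPM in CTRL 157, 162 and 163 and at 227.5, 778.7 and 379.3 CPM in KO 146, 147 and 148. Every KO library was below every CTRL library, but the KO libraries were far apart from each other. Their coefficient of variation was 61.7%, against 12.2% in CTRL. The log2 fold change was -1.20 (SE 0.42, edgeR Benjamini-Hochberg adjusted p = 0.125), -0.88 without KO 146 and -1.81 without KO 147. The order of the KO libraries, 146, 148, 147 from low to high, was not that of the tubule markers, for which KO 148 was highest.

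Ugt2b37, in the same cluster, was at 82.7, 45.6 and 60.8 CPM in CTRL and at 38.8, 99.6 and 100.4 CPM in KO 146, 147 and 148. KO 146 was thus the lowest library and KO 147 and 148 were the highest, so the groups overlapped, with a log2 fold change of 0.34 (SE 0.39), and 0.66 without KO 146. Ugt2b5, which shares 97.05% of its coding sequence with Ugt2b38, was at 2.84, 1.92 and 2.12 CPM in CTRL and at 1.46, 2.78 and 3.79 CPM in KO. Its log2 fold change was 0.21 (SE 0.36), and -0.13 without KO 148. Ugt2b34 (-0.18) was highest in KO 148 at 43.4 CPM and lowest in KO 146 at 16.8 CPM. Its value turned on single libraries, at 0.08 without KO 146 and -0.64 without KO 148, where it was called lower (edgeR Benjamini-Hochberg adjusted p = 0.0423). Ugt2a3 had -0.11. The share of Ugt2b38 in the summed Ugt2 level per length was 92.19% to 93.77% in CTRL and 82.45%, 87.26% and 75.27% in KO 146, 147 and 148. That of Ugt2b37 was 4.58% to 6.39% in CTRL and 14.04%, 11.15% and 19.89% in KO. The groups did not overlap for either share, but these are not separate results. In 1 sum, a lower share of Ugt2b38 goes with higher shares of the others, and the CPM of Ugt2b37 overlapped between the groups. These shares too were chosen for display after the values were seen and were given no test. Of the 50-base transcript stretches, 62.6% for Ugt2b38, 81.7% for Ugt2b37 and 58.3% for Ugt2b5 occur in no other gene. Part of the reads of these genes thus cannot be assigned to 1 gene.

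**Figure D3:**
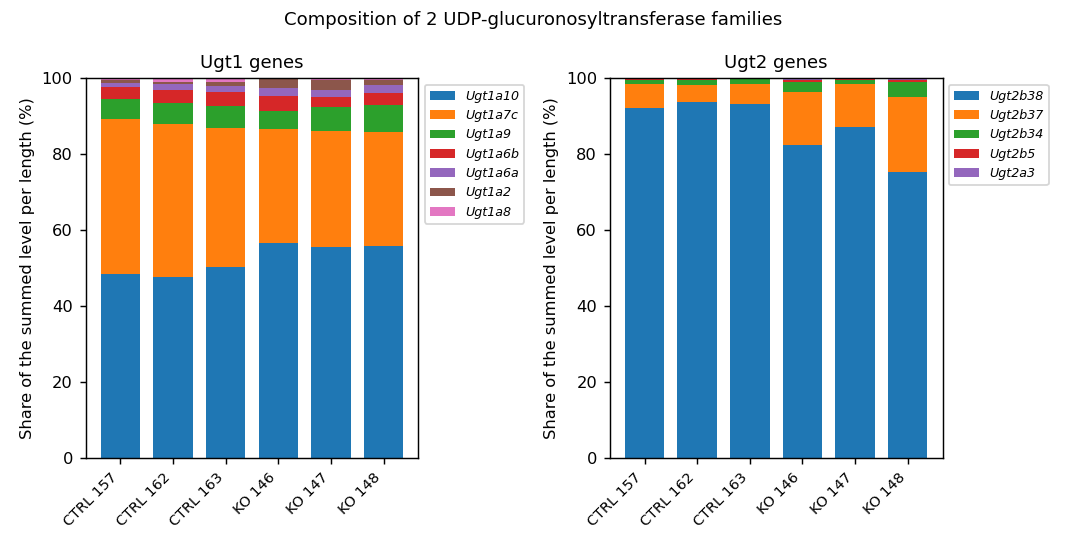
Share of each gene in the summed level per length of the Ugt1 genes (left) and of the Ugt2 genes (right), in percent, for the 6 libraries. The Ugt1a7c band is narrower in all KO libraries (29.9% to 30.47%) than in the CTRL libraries, and the Ugt2b37 band is wider (11.15% to 19.89%).

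The Ugt3 and Ugt8 genes bear the family name but are known for other sugars than glucuronic acid, N-acetylglucosamine, glucose or xylose for the human UGT3 enzymes and galactose for Ugt8a, which makes the myelin lipid galactosylceramide. Ugt3a1 (ENSMUSG00000072664, chr15:9276888-9315032, plus strand, GRCm38) was at 80.2, 64.4 and 79.1 CPM in CTRL 157, 162 and 163 and at 35.9, 35.1 and 44.5 CPM in KO 146, 147 and 148. The groups were well separated. It fell from 74.6 ± 8.82 to 38.5 ± 5.19 CPM (SD, n = 3 each), a log2 fold change of -0.96 (SE 0.13, edgeR Benjamini-Hochberg adjusted p = 0.0371, range over the alternatives 2.14e-06 to 0.198). The value was -0.91 without KO 146, and the call was lost without KO 147 (-0.90), CTRL 157 (-0.90), CTRL 162 (-1.05) or CTRL 163 (-0.91).

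Ugt3a2, next to it on chromosome 15, was at 783.5, 678.6 and 755 CPM in CTRL and at 340.3, 453.7 and 530.3 CPM in KO 146, 147 and 148. The KO libraries followed the order of their tubule markers, and none reached the CTRL range. The log2 fold change was -0.74 (SE 0.18, edgeR Benjamini-Hochberg adjusted p = 0.0757), and -0.59 without KO 146. Ugt8a was at 101, 75.3 and 91.7 CPM in CTRL and at 39.0, 59.0 and 59.3 CPM in KO, with a log2 fold change of -0.77 (SE 0.19, edgeR Benjamini-Hochberg adjusted p = 0.077) and no overlap.

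**Figure D4:**
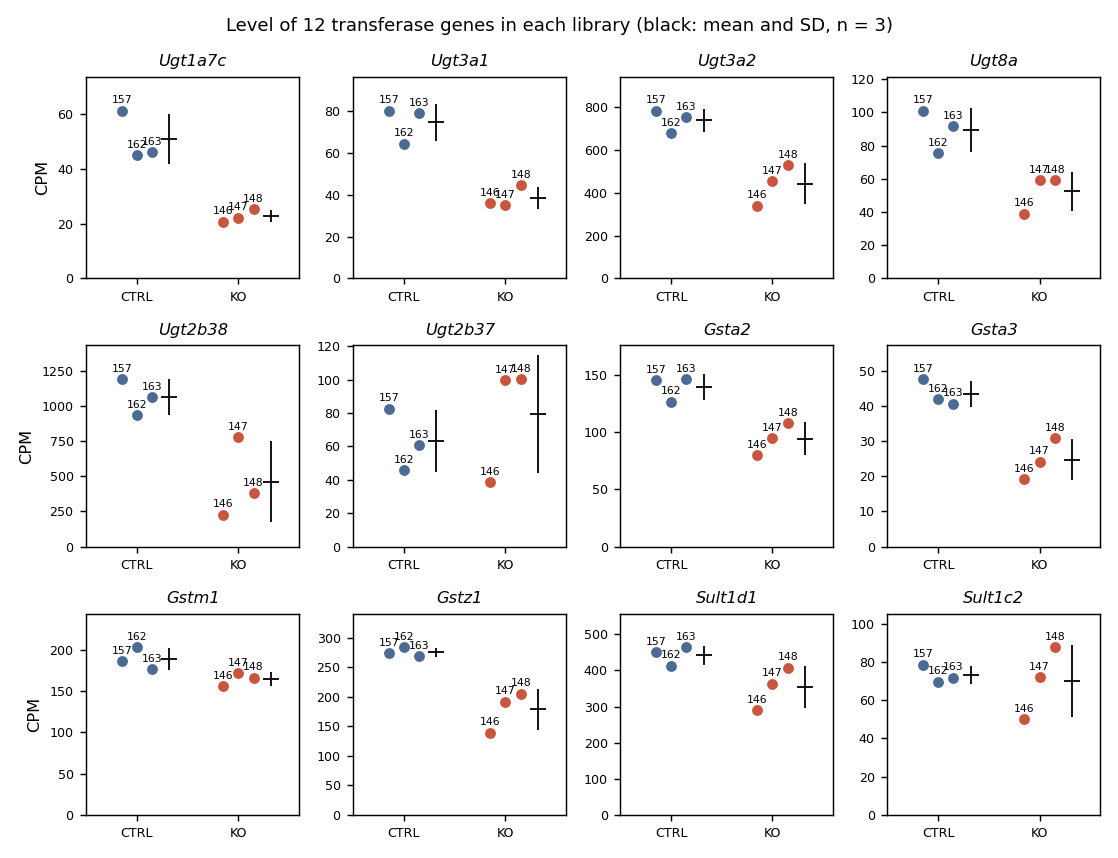
Level in CPM of 12 of the 41 genes in each library, with the mean and SD of each group beside the points (n = 3). Ugt1a7c and Ugt3a1 have tight KO points below the CTRL points, whereas Ugt2b38 ranges from 227.5 to 778.7 CPM in KO and Ugt2b37 and Sult1c2 overlap.

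Among the sulfotransferases, 6 of 21 genes were measured, 4 negative (3 by library totals) and 2 positive. None was called by edgeR, DESeq2 or limma-voom, and 0 had an unadjusted edgeR p below 0.05. Sult1d1, which sulfates catecholamines and related amines, was at 450, 414 and 465 CPM in CTRL and at 291, 364 and 408 CPM in KO 146, 147 and 148. The highest KO library was just under the lowest CTRL library, and the log2 fold change was -0.32 (SE 0.14). Sult1a1, the phenol sulfotransferase, was at 6.46, 7.12 and 8.90 CPM in CTRL and at 12.7, 8.50 and 8.98 CPM in KO, highest in KO 146 and otherwise overlapping, with a log2 fold change of 0.42 (SE 0.20). Sult2b1, the cholesterol sulfotransferase, was at 1.16, 0.84 and 0.881 CPM in CTRL and at 0.813, 0.845 and 0.594 CPM in KO, with -0.36 and overlap. Sult1b1, a form for thyroid hormones, had -0.44. Sult6b1 had 2 to 10 counts in CTRL and 9 to 23 in KO. Sult1c2 was at 78.7, 69.8 and 71.8 CPM in CTRL and at 50.1, 72.3 and 87.8 CPM in KO 146, 147 and 148, so that the KO libraries straddled the CTRL range (-0.07, SE 0.20, and 0.05 by library totals).

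The cytosolic, mitochondrial and peroxisomal glutathione S-transferases had 18 of 22 genes measured, 17 negative (14 by library totals) at a median of -0.36. By edgeR and limma-voom 0 were called, with 8 lower at an unadjusted edgeR p below 0.05 (11.8% of all genes) and 5 called lower by DESeq2 (4.49%). In 10 of the 18 every KO library lay below every CTRL library (19.6% of all genes). In the alpha class, Gsta2 was at 145.5, 126.7 and 146.6 CPM in CTRL and at 79.8, 94.9 and 108.2 CPM in KO, with a log2 fold change of -0.57 (SE 0.13, edgeR Benjamini-Hochberg adjusted p = 0.0755). Gsta3, a form that detoxifies aflatoxin epoxide in mice, was at 47.7, 42.0 and 40.7 CPM in CTRL and at 19.2, 24.1 and 30.9 CPM in KO, with -0.81 (SE 0.17, edgeR Benjamini-Hochberg adjusted p = 0.0753). Gsta4, the form that clears the lipid peroxidation product hydroxynonenal, went the other way at 31.5, 30.2 and 36.9 CPM in CTRL and 38.7, 33.6 and 36.4 CPM in KO (0.14, SE 0.10), with overlap. The alpha class thus held both the lowest adjusted p of all 18 and the single positive value. Of the transcript stretches of Gsta2, 50.2% occur in no other gene, so its counts may be split with Gsta1 and related copies.

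The mu class was the flattest. All 6 measured Gstm genes had small negative values, from -0.21 to -0.09 at a median of -0.14, of which 3 (Gstm2, Gstm5 and Gstm6) turned positive by library totals. Gstm1, its most abundant member, was at 187, 204 and 177 CPM in CTRL and at 156, 172 and 167 CPM in KO, with a log2 fold change of -0.20 (SE 0.093). In the pi class, Gstp1, an abundant enzyme for electrophiles, was at 91.9, 83.7 and 80.5 CPM in CTRL and at 64.4, 61.4 and 72.2 CPM in KO, with -0.37 (SE 0.095). Its near copy Gstp2, 98.1% identical over the coding sequence, had -0.82 at under 1 CPM.

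In the theta class every KO library lay below every CTRL library for all 3 measured genes (19.6% of all genes). By edgeR, DESeq2 and limma-voom 0 were called, with 2 lower at an unadjusted edgeR p below 0.05 (11.8% of all genes). Gstt1, which acts on small halogenated compounds, was at 89.0, 79.2 and 89.0 CPM in CTRL and at 42.9, 62.0 and 71.1 CPM in KO 146, 147 and 148 (-0.55, SE 0.18), Gstt2 had -0.41 and Gstt3 had -0.36. Gstk1, the kappa form of mitochondria and peroxisomes, was at 43.9, 43.2 and 46.3 CPM in CTRL and at 24.5, 31.0 and 37.4 CPM in KO (-0.52, SE 0.15). Gstz1, which as maleylacetoacetate isomerase acts in tyrosine breakdown, was at 274, 284 and 269 CPM in CTRL and at 139.5, 192 and 206 CPM in KO (-0.62, SE 0.15). In Gstt1, Gstk1 and Gstz1 alike, KO 146 was lowest and KO 148 highest of the KO libraries, the order of the tubule markers. In Gstp1 and Ugt3a1 KO 147 was lowest instead. Orders of the KO libraries, here and above, were not tested. Gsto1, an omega form, was at 50.1, 47.8 and 52.8 CPM in CTRL and at 34.0, 44.5 and 49.8 CPM in KO, which overlapped (-0.23, SE 0.14). Gsto2 had -0.35.

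The microsomal enzymes are membrane proteins of a separate family that also handle lipid peroxides. Of 3 genes, 2 were measured, both negative (1 by library totals). None was called by edgeR, DESeq2 or limma-voom, and 0 had an unadjusted edgeR p below 0.05. Mgst3 was at 96.8, 97.8 and 118 CPM in CTRL and at 71.0, 107 and 114 CPM in KO 146, 147 and 148, where only KO 146 was below the CTRL range (-0.10, SE 0.19, and 0.07 without KO 146). Mgst1 had -0.37. Exons of Gstm5, Gstt3, Gstz1, Sult1a1, Sult2b1 and Sult6b1 overlap those of other genes, and the sources used here do not give the strand setting of the counting.

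Because the tubule markers moved with these genes, each level was also set against the mean log2 CPM of the 23 proximal tubule markers in the same library. That mean was 9.40 to 9.43 in CTRL and 8.37, 8.90 and 9.08 in KO 146, 147 and 148. Relative to it, 3 genes were lower in every KO library than in every CTRL library, against 0.696% of all genes, and 18 were higher in every KO library, against 77% of all genes. The other 20 overlapped. One of the 3, Ugt1a8, reached the count minimum only through its CTRL libraries. Exact permutation of the 6 libraries cannot give a two-sided p below 0.1, which each of these 21 genes had.

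The 3 lower genes were Ugt1a7c, Ugt1a8 and Gsta3. Ugt1a7c stood at -3.49, -3.90 and -3.88 log2 units relative to the markers in CTRL and at -3.99, -4.42 and -4.41 in KO 146, 147 and 148, a difference of -0.52, and the gap between the nearest libraries was small. Gsta3 differed by -0.20. Ugt1a8 differed by -0.86 on very low counts. Ugt3a1 differed by -0.32 with overlap, as KO 146 was within the CTRL range. Ugt2b38 was at 0.79, 0.46 and 0.64 in CTRL and at -0.54, 0.71 and -0.51 in KO 146, 147 and 148, so KO 147 was like the CTRL libraries and the other KO libraries were far lower. Gstz1 (-0.01), Gstt1 (0.06), Gsta2 (0.06) and Ugt1a10 (0.07) were near 0 on this scale. All 6 Gstm genes were higher in every KO library, as were 77% of all genes on this scale. Sult1d1 (0.30), Sult1c2 (0.53), Gsta4 (0.78) and Sult1a1 (1.05) were higher in every KO library too. The heat map of levels relative to the tubule markers orders the genes this way.

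**Figure D5:**
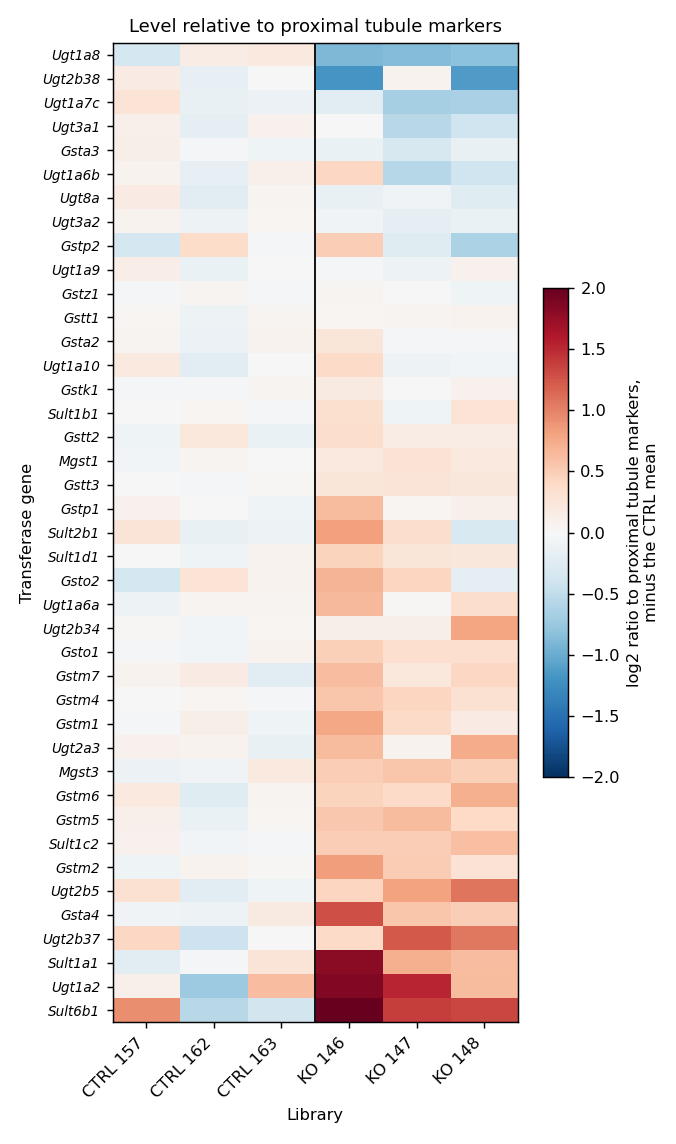
Log2 level of the 41 genes (rows) relative to the mean of 23 proximal tubule markers in each library (columns), minus the CTRL mean of the gene, blue for lower and red for higher. Ugt1a8, Ugt2b38 and Ugt1a7c are at the top with differences of -0.86, -0.75 and -0.52, Ugt2b38 with KO 147 near the CTRL level, and the rows toward the bottom are redder in all KO libraries.

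With the tubule marker mean as a covariate in edgeR, the median over the 41 genes was 0.024, and 0 were called lower (0.486% of all genes). Ugt1a7c then had -0.92 (edgeR Benjamini-Hochberg adjusted p = 0.133) and Ugt3a1 had -0.73 (edgeR Benjamini-Hochberg adjusted p = 0.139). In that fit 2 genes were called higher (1.54% of all genes), Sult1c2 at 0.61 (edgeR Benjamini-Hochberg adjusted p = 0.0108) and Ugt2b5 at 1.35 (edgeR Benjamini-Hochberg adjusted p = 0.0442). Sult1c2 was outside the rule for genes given in full and was taken up after its values were seen. With the endothelial and mesangial marker mean as the covariate instead, 0 were called lower (0.369% of all genes), and the same 2 genes were called higher (1.33% of all genes). Both marker means differ between the groups without overlap, so their effect and that of the genotype cannot be told apart.

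Genes that supply the cosubstrates or process the conjugates had mostly negative values, and 1 passed the test. Of 30 such genes 29 were tested and 26 were negative (25 by library totals), against 50.7% of all genes, at a median of -0.38. By edgeR 1 was called lower (0.421% of all genes), with 17 lower at an unadjusted p below 0.05 (11.8%), and DESeq2 called 8 lower (4.49%). None was called higher by edgeR, with 1, Chac1, at an unadjusted p below 0.05 (17.5% of all genes), and DESeq2 called 1 higher (10.3%). The called gene was Acy1, the aminoacylase that removes acetyl groups from mercapturates and other amino acids, at 156.5, 168.5 and 158.1 CPM in CTRL and at 96.3, 108 and 112 CPM in KO (-0.61, SE 0.091, edgeR Benjamini-Hochberg adjusted p = 0.0417). Ugdh, which makes UDP-glucuronic acid, was at 67.7, 69.6 and 58.2 CPM in CTRL and at 42.5, 43.7 and 48.0 CPM in KO (-0.54, SE 0.097), and the related aminoacylase gene Acy3 had -0.90 (SE 0.18). Neither passed the test. In 20 of the 29 every KO library lay below every CTRL library (19.6% of all genes), and in 1 every KO library lay above (21.9%). That 1 was Chac1, a glutathione-degrading enzyme, at 0.20 to 0.45 CPM in CTRL and 0.73 to 1.73 CPM in KO.

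Of 24 genes of the NRF2 pathway and the xenobiotic sensors, all tested, 17 were negative (13 by library totals), against 50.7% of all genes, at a median of -0.20. By edgeR 0 were called in either direction, with 9 lower (11.8% of all genes) and 3 higher (17.5%) at an unadjusted p below 0.05, and DESeq2 called 5 lower (4.49%) and 2 higher (10.3%). The 3 with the lowest p were negative. Nqo1, a quinone reductase and standard NRF2 target, was at 23.0, 22.8 and 22.7 CPM in CTRL and at 9.69, 11.5 and 15.6 CPM in KO 146, 147 and 148 (-0.90, SE 0.17). Gclm, the modifier subunit of glutathione synthesis, had -0.54 and Me1, malic enzyme, had -0.66. Nfe2l2, which encodes NRF2 itself, had -0.06 and its inhibitor Keap1 had -0.07. Hmox1, another NRF2 target, had 0.12. The nuclear receptor gene Hnf4a had -0.55, and Ahr, the aryl hydrocarbon receptor, had 0.80, and 0.48 without KO 146. Ephx1, the microsomal epoxide hydrolase, had the highest value of the 24. It was at 40.1, 42.5 and 46.2 CPM in CTRL and at 150.7, 72.1 and 55.6 CPM in KO 146, 147 and 148 (1.11, SE 0.35), highest in KO 146, and had 0.56 without that library. Of these 24 genes, those named beyond the 3 with the lowest p were chosen after their values were seen.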

How the data were processed

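RNA-seq libraries of isolated glomeruli from 3 CTRL and 3 KO mice were compared. The deposited values are raw counts per Ensembl gene, which the authors made with fastp 0.19.5, STAR 2.6.0 and HTSeq 0.11.1 and with DESeq2 also listed, per the submitters' processing notes. Those notes list GRCh37, although the identifiers are mouse. The sources used here do not give the annotation release, the strand setting or the rule for reads with several alignments. Lines that name no gene, 28.55% to 35.14% of records, were left out, and 22.51% to 29.63% were reads with several alignments, so near-identical copies may be undercounted.

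Names and exon lengths came from GENCODE M21 (GRCm38), which named 54809 identifiers and left 29 unnamed. Promoters came from RefSeq on GRCm38.p6, with no entry for Gsta4, Gstt2, Ugt1a6b or Ugt3a2. Motif and identity calculations used Python 3.11.15 and Biopython 1.88, with coding identity over the longest open reading frame of each gene.

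Counts were tested in R 4.3.3 with edgeR 4.0.16 (TMM scaling, filterByExpr with a minimum count of 10, robust quasi-likelihood F test, Benjamini-Hochberg adjustment over 17086 genes, calls at 0.05). SE is the absolute log2 fold change over the square root of F. CPM uses TMM library sizes, and log2 CPM a prior count of 2. Alternatives included limma 3.58.1 (voom) and DESeq2 1.42.0. Code was tested on simulated data. Replicates differed beyond sampling noise (chi-square per degree of freedom of 16.7 or more for every pair within a group).

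Genes given in every library were those called, the 6 largest rises and falls whose higher group averaged 1 CPM or more (4 rises qualified), and the most abundant gene per length of each family. From the 2 pathway lists, called genes and the 3 with the smallest p were taken. The genes and lists were chosen with earlier results of these data known, and 1 listed gene is not reported here.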

Additional observations from a re-analysis of the deposited data

How the results depend on the processing

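Against 2 genes called lower among the 41 (0.421% of all genes), DESeq2 called 13 (4.49%) and a fit with no filter on low counts 10 (1.31%). Leaving out 1 library gave between 0 and 15, against 0.00569% to 6.62% of all genes. Both fits with a covariate (proximal tubule or endothelial and mesangial marker mean) called 0 lower (0.486% and 0.369% of all genes). The 13, the 10 and the 15 include Ugt1a8, which reached the count minimum only through its CTRL libraries. The 2 covariate fits each called 2 higher (1.54% and 1.33% of all genes), against 0 (0.591%), with medians of 0.024 and 0.018 against -0.36. RLE size factors (0.427% of all genes), library totals (0.293%) and limma-voom (0.363%) each called 2 lower. So did a filter of 10 counts in 3 libraries (0.42%) and a fit without robust estimation (0.451%). With library totals the median of all genes moved from -0.0062 to 0.13 and 29 of the 41 were negative, against 35. Without KO 146 29 were negative, and with either covariate 19. Among the 22 genes given in every library, the sign reversed for Mgst3 with library totals (0.018). Leaving out 1 library, Mgst3 ranged from -0.24 to 0.071 and Ugt2b5 from -0.13 to 0.51. With the tubule covariate, signs among these 22 reversed for Gsto1 (0.24), Gstt1 (0.080), Mgst3 (0.50), Sult1a1 (-0.11) and Sult1d1 (0.095). With the endothelial and mesangial covariate those that reversed among the 22 were the same 5 genes, at 0.21, 0.044, 0.45, -0.086 and 0.071. The cause of these changes was not tested. For these 22 genes, 267 alternative values kept direction and side of the threshold, 38 passed it newly, 12 no longer passed and 13 reversed. The KO minus CTRL differences in the Ugt1 and Ugt2 shares moved by less than the spread between libraries when counts were not divided by length, although the Ugt1 shares themselves moved by more, an alternative chosen after seeing the data. No paired analysis was possible because the groups share no replicate numbers. Counts of at most 46 per library limit Ugt1a8, Ugt1a2, Gstp2 and Sult6b1.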
